A study of Mus musculus with 9 samples.

Results

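The genes of the growth hormone (GH) and insulin-like growth factor (IGF) axis were followed in the liver of fructose-fed rats. The 10 genes Ghr, Stat5b, Igf1, Igfals, Igfbp3, Igfbp1, Igfbp2, Socs2, Cish and Socs3 were found by their gene name in a count table of 19686 genes, and each had 1 entry. Hepatic RNA was sequenced from 9 male Wistar rats, 3 in each of 3 groups. The control group drank purified water and was gavaged with saline. The model group drank 15% fructose and was gavaged with saline. The DSS group drank 15% fructose and was gavaged with 1.8 g/kg of a methanol-water extract of Danggui-Shaoyao-San (DSS), a mixture of 6 ground herbal drugs. Treatment lasted 8 weeks, and every rat was fasted for 12 h before sacrifice. The labels give the group only as DSS, and the extract, dose and fasting time come from the study's methods. The labels also name the mouse as organism beside the Wistar strain, but the table carries rat identifiers, so the samples were read as rat.

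GH released by the pituitary acts on the liver through its receptor, which activates the kinase JAK2 and the transcription factor STAT5b. STAT5b raises the transcription of IGF-1 and of the proteins that carry it in blood, and also of SOCS2 and CIS, which then dampen the receptor's signal. The hepatic axis also depends on feeding, since fasting and low insulin lower IGF-1 and raise IGFBP1 and IGFBP2, and inflammatory cytokines raise SOCS3, which interferes with GH signalling.

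Libraries held between 14345819 and 26837227 counted reads. The defining hepatocyte markers were present throughout, with a summed level of 119000 to 191000 CPM (read counts scaled to a common library size) over 8 genes. Model replicate 1 stood apart from the other 8 libraries on the second principal component (-59, next lowest -16.4), and values without it are given for members whose result moved most. CPM were scaled over all 9 libraries, and they are compared here only within a gene, since no rat transcript lengths were used. In bulk liver RNA, fewer cells of a type and less RNA per cell cannot be told apart. The labels only number the 3 samples of a group, which were read as 3 rats, and the p-values measure the spread between these samples.

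None of the 10 genes was called in any of the 3 comparisons by edgeR's quasi-likelihood test, where a call needed a false discovery rate (FDR) of at most 0.01 and a log2 fold change of 0.5 or more in either direction. None reached an FDR of 0.05 either, which 0.601%, 0.456% and 7.21% of all genes did in the model-control, DSS-model and DSS-control comparisons. All 10 passed the filter on low counts each time. Between the model and control groups, where 0.0801% of 12486 genes were called, 2 of the 10 had an unadjusted p under 0.05 against 13.2% of all genes. For 2 of the 10 (Ghr and Igfbp2) the model and control rats did not overlap, beside 21.1% of all genes. Between the DSS and model groups, where 0.136% of 12502 genes were called, 3 of the 10 had an unadjusted p under 0.05 (8.02% of all genes), and 2 of the 10 (Igf1 and Socs2) did not overlap (13.9% of all genes). Between the DSS and control groups, where 1.48% of 12633 genes were called, 2 of the 10 had an unadjusted p under 0.05 (24.3% of all genes), and Ghr alone of the 10 did not overlap (30% of all genes). DESeq2 called 1 of the 10 in the first comparison (Igfbp2, beside 2.05% of all genes), 1 in the second (Socs2, beside 1.18%) and 0 in the third (6.09%).

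The axis was divided by how much its genes varied between rats of the same group. Ghr and Igfbp3 varied less than most liver genes, and Igf1, Stat5b and Igfals lay near the middle of all genes, while the binding proteins IGFBP1 and IGFBP2 and all 3 feedback inhibitors were among the most variable. The within-group SD of log2 CPM, pooled over the groups, was 0.09 for Ghr (percentile 3.51 of 12832 genes), 0.17 for Igfbp3 (22.4), 0.26 for Igf1 (48.6), 0.29 for Stat5b (55.6) and 0.32 for Igfals (61.3). The median over all these genes was 0.26. The other 5 genes had SDs of 1.14 (Igfbp2), 1.28 (Socs2), 1.39 (Igfbp1), 1.43 (Socs3) and 1.6 (Cish), which lay at or above the percentile of 98.9 of all genes. These 5 genes also had the lowest minimum counts of the 10, from 98 reads for Igfbp1 down to 5 reads for Igfbp2.

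**Figure D1:**
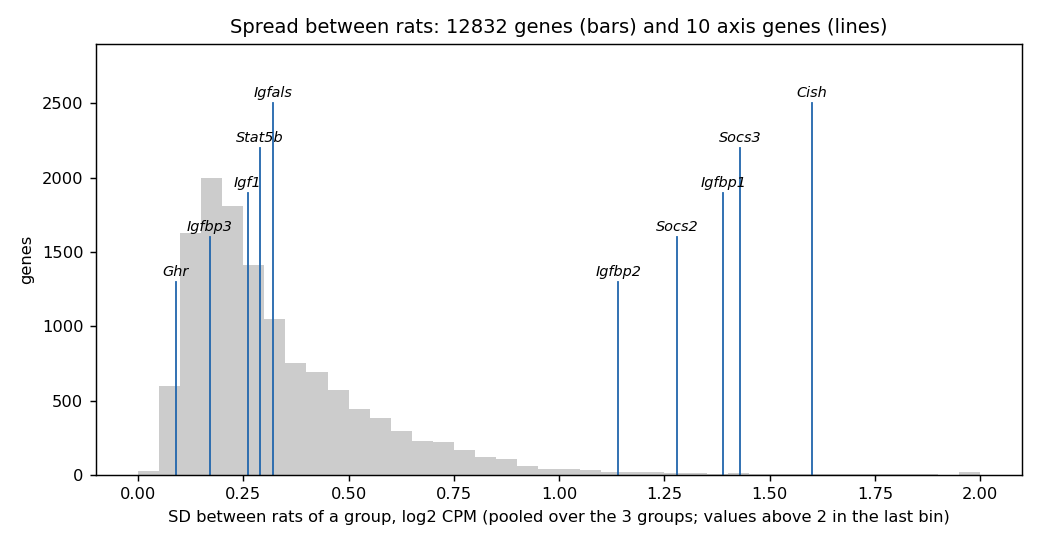
Grey bars count genes (vertical axis) by the SD of log2 CPM between rats of a group, pooled over the 3 groups (horizontal axis). Blue lines mark the 10 axis genes, of which Ghr, Igfbp3, Igf1, Stat5b and Igfals lie between 0.09 and 0.32 and the other 5 between 1.14 and 1.6.

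Ghr encodes the GH receptor and had the steadiest level of the axis. Control rats had 562, 529 and 595 CPM, model rats 748, 659 and 636 CPM, and DSS rats 610, 656 and 631 CPM. Every fructose-fed rat, with or without the extract, lay above every control rat, while the model and DSS groups overlapped. The differences were small. The model group was 1.21-fold the control group (log2 fold change 0.28 ± 0.141 SE, FDR 0.459), and the DSS group was 1.12-fold (0.16 ± 0.113, FDR 0.413). DSS and model rats differed by -0.1 ± 0.136 (FDR 0.898). Without model replicate 1, which had the highest Ghr level, the model-control difference was 0.19 (FDR 0.502) and the DSS-model difference -0.03 (FDR 0.986). With 3 rats per group, the smallest p of an exact two-sided permutation test is 0.1, and it took that value for every member whose groups did not overlap.

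Stat5b encodes the transcription factor that carries the GH signal to the nucleus. It stood at 27.9, 32.6 and 27.2 CPM in control rats, 27.7, 42.9 and 46.3 CPM in model rats, and 42.1, 31 and 42.6 CPM in DSS rats. In both fructose-fed groups 2 of the 3 rats lay above every control rat and the other lay within the control range, so the groups overlapped. The log2 difference from the control group was 0.41 ± 0.2 (FDR 0.439) in model rats and 0.39 ± 0.146 (FDR 0.138) in DSS rats, and DSS and model rats differed by -0.01 ± 0.22 (FDR 0.997). Without model replicate 1 the model-control difference was 0.59 (FDR 0.086). Stat5a, a close paralog that can share reads with Stat5b, was at 13.2 ± 1.97 CPM in control, 12 ± 3.16 CPM in model and 8.27 ± 2.17 CPM in DSS rats (SD, n = 3), with a DSS-control log2 difference of -0.68 (FDR 0.0792). Stat5a was chosen for mention after its values were seen.

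Igf1 encodes the growth factor that the liver secretes under GH. Its level was 873, 620 and 637 CPM in control rats, 482, 471 and 628 CPM in model rats, and 640, 914 and 744 CPM in DSS rats. Model replicates 1 and 2 gave the lowest values of the series, and every DSS rat lay above every model rat, although the lowest DSS rat and the highest model rat differed by less than the spread within either group. The highest model rat (628 CPM) also fell between the lower control rats. The model group was 0.742-fold the control group (-0.43 ± 0.191, FDR 0.384), and the DSS group was 1.46-fold the model group (0.54 ± 0.191, FDR 0.5). Between DSS and control rats the log2 difference was 0.11 ± 0.176 (FDR 0.765). The model-control difference was -0.26 (FDR 0.772) without control replicate 1, the highest of its group, and the DSS-control difference was -0.04 without DSS replicate 2.

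The ratio of Igf1 to Ghr reads within a library does not depend on how libraries are scaled. It was 1.55, 1.17 and 1.07 in control rats, 0.645, 0.714 and 0.988 in model rats, and 1.05, 1.39 and 1.18 in DSS rats. All 3 model rats lay below all 6 others, and the control and DSS rats overlapped. The ratio was looked at with these levels known, and no test was run on it.

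Igfals and Igfbp3 encode the acid-labile subunit and the binding protein that hold IGF-1 in its long-lived circulating complex. Igfals was at 433, 462 and 357 CPM in control rats, 425, 274 and 368 CPM in model rats, and 324, 543 and 350 CPM in DSS rats. The 3 groups overlapped fully, with log2 differences of -0.23 ± 0.195 (model against control, FDR 0.657), 0.2 ± 0.244 (DSS against model, FDR 0.894) and -0.05 ± 0.202 (DSS against control, FDR 0.913). Igfbp3 was at 74.7, 90.6 and 89.1 CPM in control rats, 77.8, 81.9 and 72.6 CPM in model rats, and 73.5, 94.2 and 98.4 CPM in DSS rats. Its groups overlapped too, and its largest log2 difference was 0.2 ± 0.145 between DSS and model rats (FDR 0.822). The Igfals model-control difference was -0.4 (FDR 0.334) without model replicate 1, and -0.4 to -0.08 over all fits that left out a rat. The DSS-control differences of both genes changed sign when single rats were left out, from -0.31 to 0.09 for Igfals and from -0.03 to 0.18 for Igfbp3.

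Hepatic Igfbp3 is known to come largely from cells other than hepatocytes, among them the sinusoidal endothelium. The summed level of the 7 sinusoidal endothelial markers in the table was 161 to 267 CPM in control rats, 110 to 306 CPM in model rats and 165 to 227 CPM in DSS rats, and all 7 were detected in every group. By edgeR and by DESeq2, 0 of the 7 reached an FDR of 0.05 in any comparison, and 0, 0 and 1 had an unadjusted p under 0.05 in the model-control, DSS-model and DSS-control comparisons. Their part in the Igfbp3 values was not tested.

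**Figure D2:**
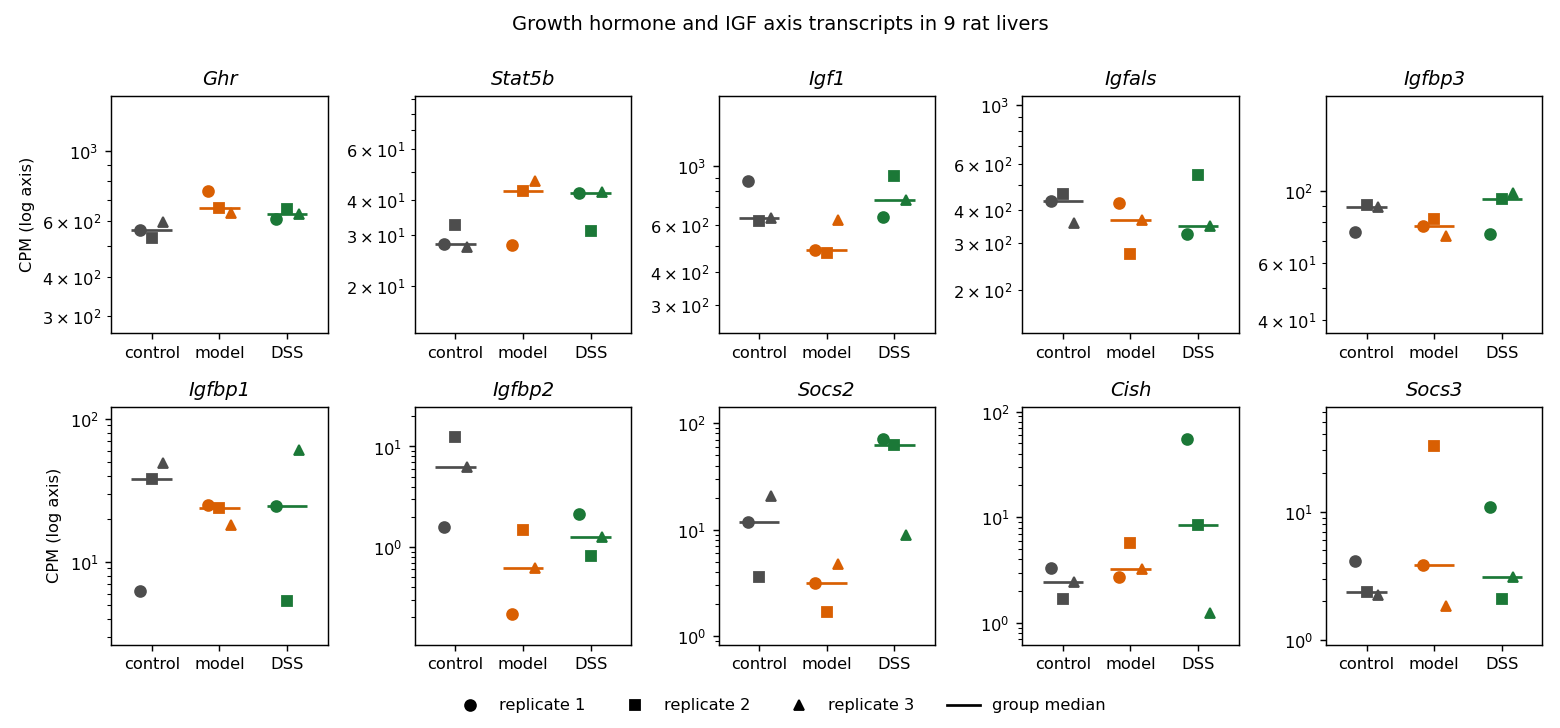
Each panel gives 1 gene of the axis as CPM on a log axis, with 1 point per rat (circle, square and triangle for replicates 1, 2 and 3) and a line at the group median. All model and DSS rats lie above all control rats for Ghr, all DSS rats lie above all model rats for Igf1 and Socs2, and all model rats lie below all control rats for Igfbp2.

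Igfbp1 encodes a binding protein whose liver transcription is held down by insulin and raised by fasting and stress. Its level was 6.3, 37.9 and 49.4 CPM in control rats, 25.1, 23.8 and 18 CPM in model rats, and 24.5, 5.29 and 60.7 CPM in DSS rats. The control and DSS groups each held 1 rat with very little Igfbp1 mRNA, 7.84-fold and 11.5-fold below the highest rat of the same group, whereas the model rats stayed within 1.39-fold of each other. The model range lay inside the range of both other groups. Log2 differences were -0.48 ± 0.601 (model against control, FDR 0.775), 0.44 ± 0.668 (DSS against model, FDR 0.918) and -0.05 ± 1.12 (DSS against control, FDR 0.986). The first turned to 0.02 without control replicate 3, the second to -0.57 without DSS replicate 3, and the third ran from -1.05 to 0.46 as rats were left out.

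In each group the rat with the lowest Igfbp1 had the highest Igf1. Control replicate 1, model replicate 3 and DSS replicate 2 had Igfbp1 levels of 6.3, 18 and 5.29 CPM and Igf1 levels of 873, 628 and 914 CPM. Across the 9 libraries the Pearson correlation of log2 CPM between both genes was -0.53, and after each group's mean was removed it was -0.76. Correlations were computed for every pair of axis genes, and this pair was not the strongest. After each group's mean was removed, the value was -0.91 for Ghr and Stat5b and -0.75 for Igfbp3 and Cish. Across the 9 libraries it was -0.85 for Ghr and Igfbp2. The points share their libraries and scaling, and all these values are a description.

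Igfbp2 encodes a binding protein that is high in fetal and fasted liver. Control rats had 1.57, 12.4 and 6.25 CPM, model rats 0.215, 1.48 and 0.616 CPM, and DSS rats 2.11, 0.809 and 1.25 CPM. Behind the model values were 5, 23 and 10 reads, so counting error was appreciable there. Every model rat lay below every control rat, by a narrow margin between 1.48 and 1.57 CPM, and all DSS rats except replicate 1 also lay below every control rat. The model group was 0.11-fold the control group (-3.19 ± 0.858), which gave an FDR of 0.165 in edgeR and 0.000918 in DESeq2, so that the call depended on the test. Without 1 rat at a time the edgeR value ran from -4.07 to -2.37 with FDRs of 0.13 to 0.418, and it was -2.69 without model replicate 1. The DSS-control difference was -2.27 ± 0.81 (FDR 0.161), and DSS and model rats differed by 0.91 ± 0.66 (FDR 0.823). Fits that left out a rat gave -2.76 to -1.45 for the former and 0.42 to 1.79 for the latter, with 0.42 without model replicate 1 and 1.79 without model replicate 2.

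Socs2 encodes a STAT5b-induced inhibitor of GH receptor signalling. Its level was 11.7, 3.57 and 20.9 CPM in control rats, 3.18, 1.67 and 4.74 CPM in model rats, and 71.2, 62.2 and 9 CPM in DSS rats. DSS replicates 1 and 2 were above every rat of the other groups, DSS replicate 3 lay within the control range, and every DSS rat lay above every model rat. The DSS group was 14.9-fold the model group (3.89 ± 0.753), with an FDR of 0.1 in edgeR and 0.00113 in DESeq2, so this call also depended on the test. Fits without single rats gave differences of 3.47 to 4.39, and the FDR was lowest without DSS replicate 3 (0.0127) and highest without model replicate 1 (0.512). The model group was 0.266-fold the control group (-1.91 ± 0.619, FDR 0.25), and the DSS group was 3.93-fold the control group (1.98 ± 1, FDR 0.313). The former ran from -2.34 to -1.25, its smallest size being without control replicate 3, and the latter from 1.56 to 2.61. With all rats kept but another tool, scaling, filter or design, the model-control FDR ran from 0.0172 to 0.527, so it too depended on the setting. The DSS-model and model-control comparisons share the model rats, so a low model group enters both. The DSS-model and DSS-control comparisons share the DSS rats.

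Cish encodes CIS, the other STAT5-induced inhibitor. Control rats had 3.33, 1.67 and 2.46 CPM, model rats 2.71, 5.65 and 3.26 CPM, and DSS rats 55.5, 8.36 and 1.25 CPM. DSS replicate 1 alone reached 1025 reads, against 24 to 155 in the other 8 rats, and DSS replicate 3 had the lowest Cish level of the series. The DSS group spanned 44.5-fold, and the groups overlapped. The log2 difference of DSS rats was 2.51 ± 1.09 from model rats (FDR 0.622) and 3.09 ± 1.45 from control rats (FDR 0.278). Without DSS replicate 1 these were 0.32 (FDR 1) and 0.92. Model and control rats differed by 0.61 ± 0.37 (FDR 0.524), with 0.25 to 0.9 when 1 rat was left out and the lowest value without model replicate 2.

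Socs2 and Cish stood in no fixed proportion to each other. The Socs2 to Cish read ratio in DSS rats was 1.28, 7.44 and 7.21, and it ran from 0.295 in model replicate 2 to 8.51 in control replicate 3 over all rats. DSS replicate 1 had the highest level of both genes and DSS replicate 3 the lowest level of both within their group. The correlation of their log2 CPM over the 9 libraries was 0.61.

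Socs3 encodes the cytokine-induced inhibitor. It was at 4.14, 2.38 and 2.26 CPM in control rats, 3.83, 32.7 and 1.85 CPM in model rats, and 10.8, 2.1 and 3.12 CPM in DSS rats. Model replicate 2 was far above the other 8 rats, and the rest of the model group lay within or below the control range. The log2 differences were 2.09 ± 0.955 (model against control, FDR 0.408), -1.24 ± 1.03 (DSS against model, FDR 0.843) and 0.84 ± 0.653 (DSS against control, FDR 0.489). Without model replicate 2 the first was -0.05 and the second 0.9, and without DSS replicate 1 the third was -0.18, so each direction rested on 1 rat. Model replicate 2 also had the highest levels of Stat3 (175 CPM, others 74.9 to 120 CPM) and of the interleukin-1 receptor gene Il1r1 (180 CPM, others 43.7 to 141 CPM), both named after their values were seen. Its Junb level (138 CPM) was the highest of the series too, and its Lbp level (103 CPM) lay within the range of the other fructose-fed rats. Its levels of the acute-phase genes Crp (5830 CPM) and Serpina3n (6610 CPM) were the lowest of all fructose-fed rats. Its sinusoidal endothelial marker sum (306 CPM) was the highest of the 9 rats and its Kupffer cell marker sum (498 CPM) the second highest after control replicate 1 (685 CPM). The part of these cells in the Socs3 value was not tested.

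**Figure D3:**
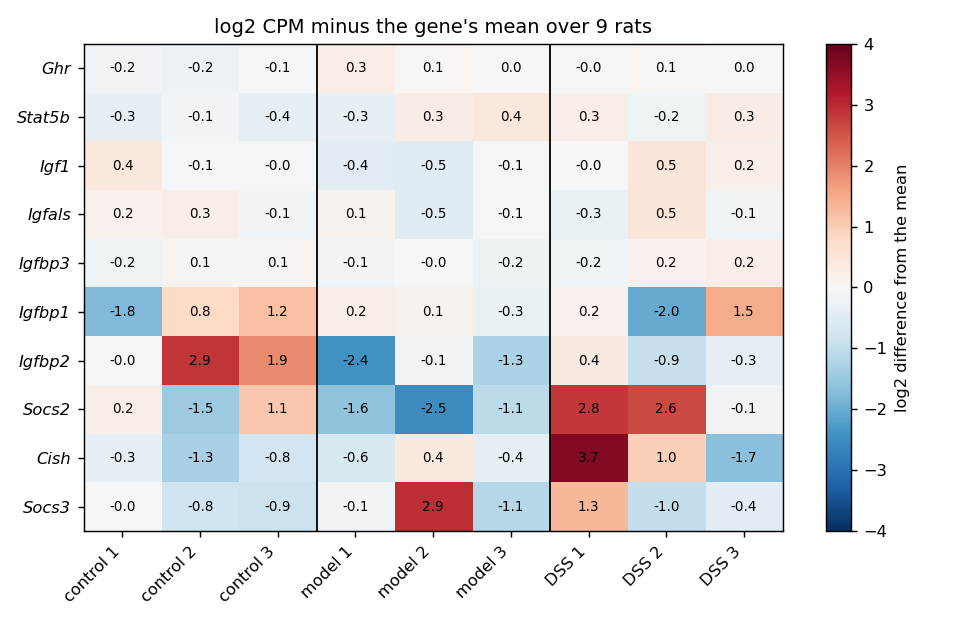
Rows are the 10 axis genes and columns the 9 rats, and each cell gives log2 CPM minus the gene's mean over the 9 rats, with red above and blue below the mean. The upper 5 genes stay within 0.5 of their mean in every rat, while Igfbp1, Igfbp2, Socs2, Cish and Socs3 each deviate by over 1.5 in single rats, such as Cish in DSS replicate 1 and Socs3 in model replicate 2.

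**Figure D4:**
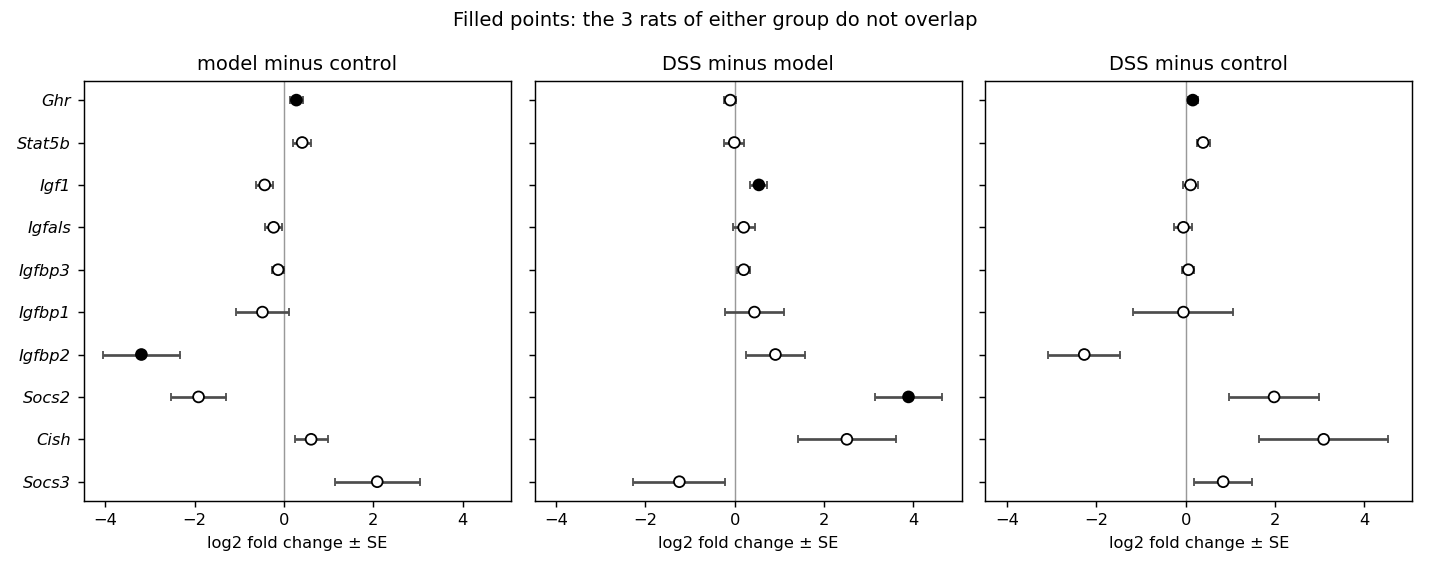
The log2 fold change of each axis gene (point) with its SE (bar) is given in the 3 comparisons on 1 common horizontal axis, and filled points mark genes whose groups do not overlap. Ghr, Igf1, Igfals, Igfbp3 and Stat5b lie between -0.43 and 0.54, and the other 5 genes reach from -3.19 to 3.89 with SEs of 0.37 to 1.45.

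Over the 10 genes the median log2 difference was -0.18 between model and control rats (4 higher, 6 lower), 0.32 between DSS and model rats (7 higher, 3 lower) and 0.13 between DSS and control rats (7 higher, 3 lower), beside 0, 0 and -0.01 over all genes tested. The first 2 comparisons share the model rats, and the last 2 share the DSS rats.

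Genes whose level followed a member most closely across the 9 rats were picked by the Pearson correlation of log2 CPM among 12832 genes. For Igfbp2 they were Cry2 (0.97), a repressor of the circadian clock, LOC689757 (0.948) and Zfp248 (0.944). Cry2 was at 36.8, 53.7 and 45.9 CPM in control rats, 21.8, 36.5 and 26.5 CPM in model rats and 34.5, 25.7 and 29.5 CPM in DSS rats. Like Igfbp2 it was lower in every model rat than in every control rat, by a narrow margin between 36.5 and 36.8 CPM. Of all genes 21.1% did not overlap between these groups. For Socs2 they were Luc7l (0.944), Rab43 (0.937) and the sphingosine-1-phosphate receptor gene S1pr2 (0.925). S1pr2 was at 17.9, 15.9 and 6.09 CPM in DSS rats and at 5.29 to 10.7 CPM in the other 6 rats, with the same DSS replicate 3 as the exception. For Igf1 they included Phrf1 (0.951) and Ncaph2 (0.938). For Igfbp1 they were Slc39a13 (0.915), Slc13a4 (0.891) and Large2 (0.871). These coefficients were the highest found in a search of all genes over 9 points that share library and depth, and they are a description. A pattern over rats that such a gene shares with its member follows from this choice.

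The other genes of the receptor complex and the JAK-STAT pathway had medians near 0. Of 20 listed genes, 19 were in the table and 18 or 19 were tested, and their median log2 difference was 0.02, 0.05 and 0.06 in the model-control, DSS-model and DSS-control comparisons. Grb10, an adaptor that inhibits insulin and IGF-1 receptor signalling, was the 1 listed gene that reached an FDR of 0.05 in edgeR, between DSS and control rats, where 7.21% of all genes did, and in DESeq2 3 of the list and 10.7% of all genes did. The model-control and DSS-model comparisons had 0 in either tool, and 3 and 1 at an unadjusted edgeR p under 0.05 (13.2% and 8.02% of all genes). Between DSS and control rats 3 were higher and 1 lower at that p (24.3% of all genes). Grb10 was at 2.25, 1.25 and 1.79 CPM in control rats, 3.61, 3.85 and 2.77 CPM in model rats and 3.63, 4.21 and 3.85 CPM in DSS rats. The DSS-control log2 difference was 1.12 ± 0.263 (FDR 0.0364, but above 0.05 when any rat except control replicate 1 was left out). Its model-control difference was 0.94 ± 0.31 (FDR 0.252). Jak2, the kinase bound to the receptor, was at 15.5 ± 3.17, 16.1 ± 3.48 and 16.6 ± 1.45 CPM in control, model and DSS rats (SD, n = 3).

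Among the other IGF ligands, receptors, binding proteins and proteases, 18 of 19 were in the table and 13 to 15 were tested. In any comparison 0 reached an FDR of 0.05 in edgeR or DESeq2. An unadjusted edgeR p under 0.05 was found for 2, 1 and 1 in the model-control, DSS-model and DSS-control comparisons, beside 13.2%, 8.02% and 24.3% of all genes. The insulin receptor gene Insr had the lowest p, with 71.8 ± 2.2 CPM in control and 93.8 ± 12.9 CPM in DSS rats (SD, n = 3, log2 difference 0.38 ± 0.117, FDR 0.0844). Igfbp4 was at 1370 ± 125, 1290 ± 204 and 1360 ± 97.7 CPM in the control, model and DSS groups, while the IGF-1 receptor gene Igf1r was at or under 1.13 CPM in every rat. These last genes were named after their values were seen.

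The pulsatile GH of male rats sets a male pattern of liver genes. Of 14 listed male-biased genes 9 were in the table with 10 entries, since Mup4 had 2, and between DSS and control rats 8 of the 10 entries were higher and 2 lower, with a median of 0.8. At an FDR of 0.05, 2 were higher (3.54% of all genes) and 1 lower (3.67%), and of these Cyp3a18 and Cyp2c11 belong to P450 families with close members, for which shared reads were not measured. The P450 gene Cyp3a18 was at 483 ± 153, 641 ± 30 and 1050 ± 228 CPM in the control, model and DSS groups (DSS-control 1.12 ± 0.261, FDR 0.0438). The hydroxyacid oxidase gene Hao2 was at 359 ± 93.9, 442 ± 210 and 680 ± 151 CPM (0.92 ± 0.227, FDR 0.0482). Cyp2c11, the major male-specific P450 of rat liver, lay in the opposite direction at 2770 ± 628, 2010 ± 662 and 1630 ± 63.7 CPM (-0.78 ± 0.173, FDR 0.0304). When 1 rat was left out, each of the 3 kept an FDR of at most 0.05 in 1 of 6 fits, Cyp3a18 without control replicate 3 (0.0362), Hao2 without DSS replicate 3 (0.0457) and Cyp2c11 without control replicate 1 (0.0125). In the model-control and DSS-model comparisons, with medians of 0.26 and 0.32, 0 of the 10 reached an FDR of 0.05 in edgeR. An unadjusted edgeR p under 0.05 was found for 3 in each (13.2% and 8.02% of all genes), and 2 and 1 reached that FDR in DESeq2 (3.75% and 1.72%). Between DSS and control rats 5 were higher and 1 lower at an unadjusted p under 0.05 (24.3% of all genes). In DESeq2 5 reached an FDR of 0.05 there (10.7%).

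Of 14 female-biased genes 12 were in the table, and 0 reached an FDR of 0.05 in edgeR in any comparison. In DESeq2 1, 0 and 2 did in the model-control, DSS-model and DSS-control comparisons, where 3.75%, 1.72% and 10.7% of all genes did. An unadjusted edgeR p under 0.05 was found for 1, 1 and 4, beside the 13.2%, 8.02% and 24.3% of all genes given above. Between model and control rats 11 of the 12 were lower (median -0.21), between DSS and model rats 6 were higher and 5 lower (0.04), and between DSS and control rats 3 were higher and 9 lower (-0.26). Adgre1 of this list is also a Kupffer cell marker, and in the model-control comparison all 8 Kupffer cell markers (median -0.35) and all 7 sinusoidal endothelial markers (-0.17) had values below 0, with 1 and 0 at an unadjusted p under 0.05. Their part in these values was not tested. Trim24 had the lowest p of the list, with 4.52 ± 1.11 CPM in control and 2.41 ± 0.562 CPM in DSS rats (-0.91 ± 0.267, FDR 0.0743).

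Among 12 GH-induced transcription factors and serum proteins in the table, Serpina3n, an acute-phase and GH-responsive protease inhibitor, was called between DSS and control rats, where 1.48% of all genes were. It rose from 4800, 4780 and 5140 CPM in control rats to 11000, 8920 and 10100 CPM in DSS rats (log2 difference 1.02 ± 0.133, FDR 0.0036), and model rats lay between at 8170, 6610 and 8510 CPM. Its FDR was above 0.01 in 5 of 6 fits that left out a rat, and stayed at 0.00548 only without DSS replicate 2, with a highest value of 0.0206. Fos, an immediate early gene, was lower in DSS than in model rats (0.532 ± 0.128 against 2.59 ± 0.466 CPM, SD, n = 3; -2.26 ± 0.343, FDR 0.0434) and than in control rats (1.5 ± 0.429 CPM; -1.48 ± 0.383, FDR 0.0499), and both FDRs exceeded 0.05 when any 1 rat was left out. Onecut1, a liver factor known to be induced by GH, was at 17.1, 6.54 and 30.7 CPM in control rats, 1.59, 3.66 and 4.25 CPM in model rats and 33.6, 49.4 and 4.26 CPM in DSS rats. Among control and DSS rats, its lowest were control replicate 2 and DSS replicate 3, which were also lowest in Socs2. Its log2 difference was -2.54 between model and control rats (FDR 0.117) and 3.23 between DSS and model rats (FDR 0.254), and it was picked after its values were seen. In this list 7, 4 and 2 genes had an unadjusted p under 0.05 in the model-control, DSS-model and DSS-control comparisons (13.2%, 8.02% and 24.3% of all genes). In DESeq2 2 in each reached an FDR of 0.05, as did 3.75%, 1.72% and 10.7% of all genes.

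In the interleukin-6 and SOCS3 arm, 14 of 15 genes were tested, and 3 were higher in DSS than in control rats at an FDR of 0.05, beside 3.54% of all genes. At any FDR, 11 were higher and 3 lower between DSS and control rats (median 0.36). Between model and control rats 10 were higher and 4 lower (0.29), and between DSS and model rats 8 were higher and 6 lower (0.12). Junb was called, and rose from 14.3, 19 and 14.4 CPM in control rats to 57.8, 39.7 and 58.3 CPM in DSS rats (1.7 ± 0.183, FDR 0.00183). In model rats it was at 128, 138 and 18.2 CPM, and its FDR was 0.0123 without control replicate 1 and 0.152 with all 9 libraries in 1 fit. The acute-phase gene Lbp was at 49.2 ± 6.17, 91.3 ± 19.6 and 123 ± 37.3 CPM in control, model and DSS rats (1.32 ± 0.212, FDR 0.012, and 0.0515 without control replicate 2), and Crp at 5680 ± 506, 7230 ± 1230 and 8090 ± 425 CPM (0.5 ± 0.129, FDR 0.0483, over 0.05 when any 1 rat was left out). Socs3 itself was not called beside them. None of the 14 reached an FDR of 0.05 in edgeR in the model-control and DSS-model comparisons. There 5 and 0 had an unadjusted edgeR p under 0.05 (13.2% and 8.02% of all genes), and 3 and 0 reached that FDR in DESeq2 (3.75% and 1.72%). Between DSS and control rats 4 were higher and 1 lower at an unadjusted p under 0.05 (24.3% of all genes). In DESeq2 4 reached an FDR of 0.05 there (10.7%). The 1 lower gene was A2m (-1.94 ± 0.577, FDR 0.0771), which was also lower in model than in control rats (-2.74 ± 0.664, FDR 0.122). Its level was low throughout, at 1.18 ± 0.348, 0.184 ± 0.179 and 0.301 ± 0.214 CPM in control, model and DSS rats (SD, n = 3).

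Of 14 FOXO1 and fasting genes that share regulation with Igfbp1, 13 were higher in DSS than in model rats (median 0.31), 6 were higher and 8 lower in model than in control rats (-0.05), and 8 were higher and 6 lower in DSS than in control rats (0.15). In all 3 comparisons 0 reached an FDR of 0.05 in edgeR. In DESeq2 1, 0 and 3 did in the model-control, DSS-model and DSS-control comparisons (3.75%, 1.72% and 10.7% of all genes), and 4, 1 and 4 had an unadjusted edgeR p under 0.05 (13.2%, 8.02% and 24.3% of all genes). In the DSS-model comparison that 1 gene was G6pc, the only gene of the list that was lower there (-1.14 ± 0.455, FDR 0.576). It was at 757 ± 292 CPM in model and 343 ± 213 CPM in DSS rats (SD, n = 3), and none of the higher genes had such a p. Pdk4, a kinase that limits glucose oxidation, had the lowest p, with 37.6 ± 7.15 CPM in control and 58.5 ± 2.73 CPM in model rats (0.63 ± 0.158, FDR 0.13, and 0.0361 in DESeq2). Of 11 stress genes 10 were higher in model than in control rats, with a median of 0.7, and Asns, the asparagine synthetase gene, reached an FDR of 0.05, as 0.601% of all genes did. An unadjusted p under 0.05 was found for 6 of the 11 (13.2% of all genes), and 4 reached an FDR of 0.05 in DESeq2 (3.75%). Between DSS and model rats 4 were higher and 7 lower (median -0.09), and between DSS and control rats 10 were higher and 1 lower (0.54). In the DSS-model comparison 0 reached an FDR of 0.05 in edgeR or DESeq2, and 1 had an unadjusted edgeR p under 0.05 (8.02% of all genes). In the DSS-control comparison 1 reached that FDR in edgeR (7.21% of all genes) and 4 in DESeq2 (10.7%). There 4 had an unadjusted edgeR p under 0.05 (24.3%). Asns was at 3.85, 2.74 and 1.46 CPM in control rats, 18.1, 22.7 and 31.7 CPM in model rats and 4.12, 17.9 and 6.29 CPM in DSS rats (model-control 3.13 ± 0.352, FDR 0.0151, and 0.086 without control replicate 2). Trib3, a pseudokinase induced by the same stress, was at 1.66 ± 0.468, 5.76 ± 2 and 10.3 ± 5.64 CPM (DSS-control 2.64 ± 0.528, FDR 0.0342, but above 0.05 when any rat except DSS replicate 3 was left out).

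**Figure D5:**
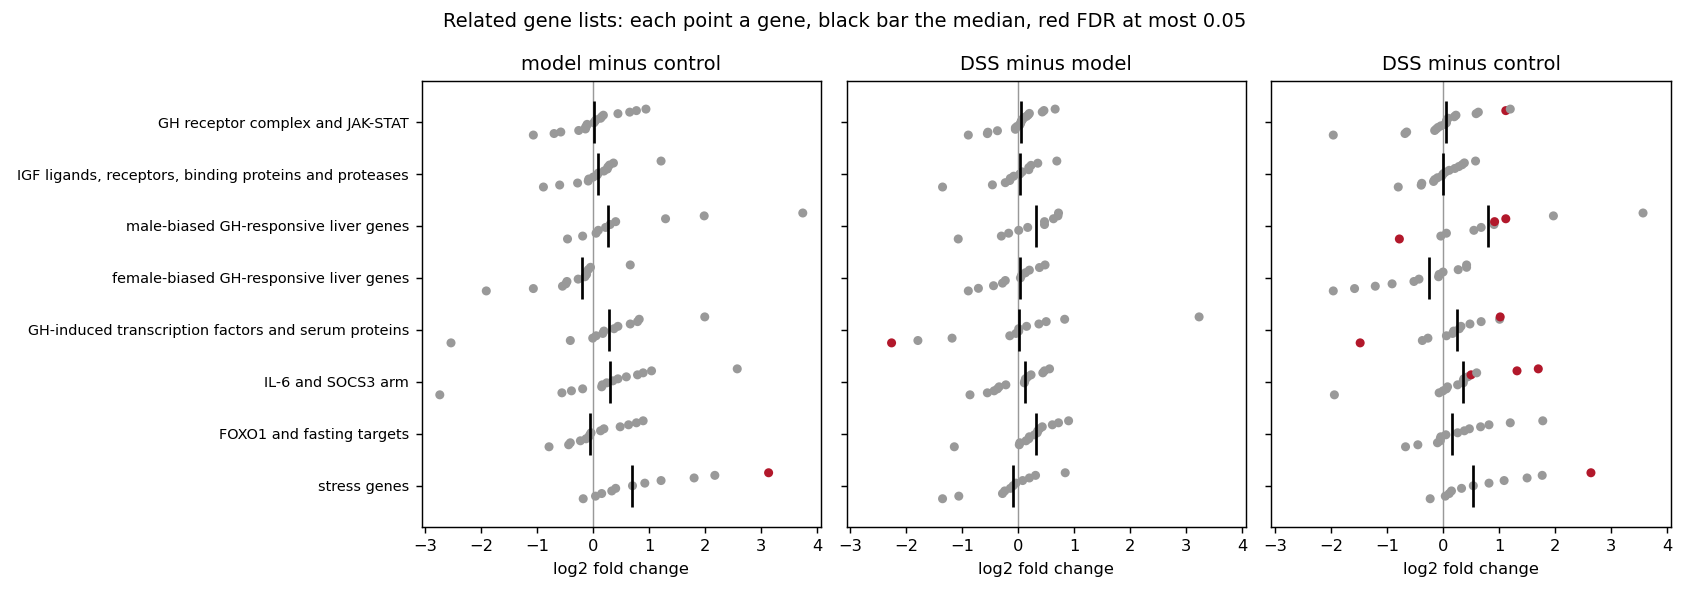
Each point is a gene of a related list placed by its log2 fold change (horizontal axis) in the 3 comparisons, with a black bar at the list's median and red for an FDR of at most 0.05. Red points are few, with 1 in the model-control panel (Asns, 3.13), 1 in the DSS-model panel (Fos, -2.26) and the others in the DSS-control panel.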

How the data were processed

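Hepatic RNA of 9 rats was analysed as the raw counts of reads per gene that the authors deposited, without normalization. Per the submitters' processing notes and the study's methods, reads were aligned with HISAT2 and counted on exons without regard to strand with HTSeq 0.6.1, and the notes name the build Rnor_6.0. Genes that overlap on opposite strands and close paralogs can therefore share reads. The study compared groups with DEGseq and DESeq. Gene names were those of the count table. A second table of assembled transcripts was not used. No rat genome, annotation or sequence was used here, and a planned search for promoter motifs was not run.

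Pairs of groups were compared in edgeR 4.0.16, run in R 4.3.3, from their 6 libraries alone. The fit used filterByExpr, TMM factors, robust glmQLFit and the two-sided glmQLFTest. P-values were adjusted by Benjamini-Hochberg over all genes tested. SEs were derived from the F statistic. CPM used TMM factors over all 9 libraries (0.866 to 1.13), and log2 CPM a prior count of 2. Groups were taken as non-overlapping from CPM. Total counts of 14345819 to 26837227 leave counting error small except for genes with few reads. Alternatives were DESeq2 1.42.0, other scalings and filters, all 9 libraries in 1 fit, a replicate block, other thresholds and each rat left out. For the list genes they were added after the values were seen. The fits were tested on simulated counts.

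The 10 genes, the lists and the marker lists were chosen with earlier results of these data known. Named list genes are those with an FDR of at most 0.05 in any comparison or, where a list had none, the gene with the lowest p. Jak2, Stat5a, Igfbp4, Igf1r, Stat3, Il1r1, Onecut1, G6pc and A2m lie outside this rule and were named after their values were seen. For Igf1, Igfbp1, Igfbp2 and Socs2 the 3 most similar genes by correlation are named, except 1 that is not reported here. Of the markers of other cells, 0 of the Kupffer cell, stellate cell, bile duct, leukocyte, red blood cell, proliferating, pancreas and intestine lists reached an FDR of 0.05 in edgeR or DESeq2 in any comparison, and at an unadjusted edgeR p under 0.05 the proliferating list had 4 of 5 (all lower in DSS than in model rats) and the others at most 2. Of the hepatocyte list 1 of 8 reached an FDR of 0.05 in edgeR, between DSS and control rats. In DESeq2 1, 0 and 1 did in the model-control, DSS-model and DSS-control comparisons. At an unadjusted edgeR p under 0.05, 1 was higher and 2 lower in model than in control rats. In DSS rats 1 was higher than in model rats, and 3 were higher and 1 lower than in control rats.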

Additional observations from a re-analysis of the deposited data

How the results depend on the processing

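Model-control calls over all genes numbered 10, and were 71 with no filter on low counts, 256 in DESeq2, 25 with all 9 libraries in 1 fit, 75 at an FDR of 0.05 and 0 to 10 with a rat left out. DSS-model calls numbered 17, and were 11 with library size alone, 38 with no filter, 147 in DESeq2, 57 at an FDR of 0.05 and 2 to 12 with a rat left out. DSS-control calls numbered 187, and were 489 with no filter, 769 in DESeq2, 113 with all 9 libraries, 804 at an FDR of 0.05 with the fold minimum kept (911 without it) and 86 to 132 with a rat left out. None of the 10 axis genes was called with a rat left out. DESeq2 called 1 of them in each of the first 2 comparisons, Igfbp2 (-3.17) and Socs2 (3.9). With library size alone, the median of all genes shifted by -0.145 in the model-control and -0.144 in the DSS-control comparison. The share of DSS-control calls that were higher was 44.4% (83 of 187) and became 23.9% (57 of 238), and Igf1 (-0.04) and Igfbp3 (-0.07) changed sign. Against the shift both were still higher.

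The labels do not say whether replicate numbers pair the rats, and same-numbered rats correlated at -0.23 to -0.02 after each group's mean was removed. With 3 rats per group these values cannot exclude a pairing, and the main fits used none. With the replicate number as a block, 0 (1166 at an unadjusted p under 0.05), 7 and 104 genes were called in the 3 comparisons, and in DSS-model Igfbp1 (-0.09) and Stat5b (0.01) changed sign.

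With a rat left out, 161 of the 180 fold changes of axis genes kept their direction and 19 changed sign. The model-control ranges were -0.97 to 0.02 for Igfbp1 and -0.05 to 2.6 for Socs3. The DSS-model ranges were -0.07 to 0.34 for Igfals, -0.57 to 0.93 for Igfbp1, -2.29 to 0.9 for Socs3 and -0.21 to 0.14 for Stat5b. The DSS-control ranges were -0.04 to 0.28 for Igf1, -0.31 to 0.09 for Igfals, -1.05 to 0.46 for Igfbp1, -0.03 to 0.18 for Igfbp3 and -0.18 to 1.22 for Socs3. Where 1 group kept 2 rats, the spread was estimated from the other rats. With at least 10 counts in every library Igfbp2 could not be tested against the model group. None of the 14 list genes named by the rule changed direction, and the other list genes named were not refitted. The causes were not tested.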
